A study of Mus musculus with 9 samples.

Results

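Colonic expression was compared between 3 C57BL/6J mice that had received dextran sulphate sodium (DSS) and electroacupuncture (EA) and 3 control mice on distilled water. The question was which genes were still away from the uninjured level after the treatment, which had passed beyond it and which had moved only in treated mice. Control mice had neither DSS nor EA. DSS and DSS + EA mice drank 2.5% DSS for 7 days, and DSS + EA mice also had needles at ST36 on both sides, stimulated at 2 Hz and 0.2 mA for 30 min a day over 5 days, beginning after 5 days of modelling. Control and DSS mice were held for 30 min without EA, so a sham puncture was not part of the comparison. These 6 libraries were taken from a series of 9, and the other 3 came from DSS mice without EA and served to place each change. Each library was long-read cDNA from colon tissue, and 12566 of 27719 genes and unannotated loci had enough counts to be tested.

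DSS is toxic to the colonic epithelium, and the ulcers that follow fill with neutrophils and monocytes before the crypts regrow. Interferons, released when cells sense nucleic acids or when lymphocytes are activated, act on a shared set of antiviral and antigen-presenting genes, the interferon-stimulated genes. Many of these carry in their promoter an interferon-stimulated response element, in which short GAAA repeats are spaced by a pair of bases. Matrix metalloproteinases, collagens, complement and acute-phase proteins are made during inflammation as well as repair. The gasdermin C and goblet cell products belong to the mature surface of the colon.

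Total counts ranged from 2627695 to 4235576 a library, so 3 counts corresponded to between 0.708 and 1.14 CPM. CPM are counts brought to a common library total, here after scaling between libraries by TMM for the levels below, which are listed by mouse from 1 to 3. Colonic markers were detected in every DSS + EA mouse. Muc2, the main goblet cell mucin, was at 332, 385 and 287 CPM and Slc26a3, the chloride exchanger of surface colonocytes, at 219, 282 and 221 CPM. DSS + EA mice 2 and 3 stood apart in pancreatic acinar transcripts: the 24 listed acinar genes held 4.95% and 2.26% of their counts, against 0.101% in DSS + EA mouse 1 and 0.0902 to 0.276% in control mice. Defining acinar enzymes were near 0 in control mice, where 9 of the 24 genes had no count, and Clps, Sycn and Cela1 made up most of the control signal. Counts are given below with and without these mice. The part of this RNA in the other results was not tested. In bulk colon, fewer cells of a type and less RNA per cell cannot be told apart.

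Of the 12566 genes, 457 (3.64%) differed between DSS + EA and control mice at an adjusted p under 0.05. Of these, 377 (3.00%) were higher and 80 (0.637%) lower in DSS + EA, with a median absolute difference of 2.18 on the log2 scale and a median standard error of 0.40. All 457 had levels that did not overlap between the groups, as did 4044 genes in all (32.2%). At an unadjusted P under 0.05, 2135 of the 12566 genes passed in either direction, the background for list counts at that level below. By the stricter size and looser p of the study's rule for differentially expressed genes (DEGs; a log2 fold change beyond 2.5 and an unadjusted P under 0.01), 219 were higher and 42 lower (2.08%). With the same 3 control mice, DSS changed 5144 genes (40.9%), and DSS + EA differed from DSS at 4457 (35.5%).

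Most of the genes that DSS had moved no longer passed the test against control. Of 2698 genes higher with DSS, 2461 (91.2%) were not called in DSS + EA mice, and their median log2 fold change against control was 0.36, against 1.64 with DSS. Of 2446 genes lower with DSS, 2347 (96.0%) were not called, with medians of -0.25 and -1.47. Of these 2461 and 2347 genes, 1714 and 1607 were called between DSS + EA and DSS. The rest were called against neither group and cannot be placed. Missing the threshold does not place a gene at its control level: 59 of the genes not called against control, 51 and 8 by direction, still met the DEG rule.

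The 457 genes were sorted by the same test in all 3 comparisons. In 237 genes DSS and DSS + EA were both above control, and in 69 both were below it. A further 30 were below control with DSS and above it in DSS + EA, and 0 showed the opposite crossing by edgeR (23 at an unadjusted P under 0.05 against control, and 3 by DESeq2). In 104 genes DSS + EA was above both other groups while DSS was not called against control, 10 were below both, and 7 could not be placed. The count of 457 moved with the mice in the fit: it was 110, 147 and 266 without control mouse 1, 2 or 3, 262, 292 and 134 without DSS + EA mouse 1, 2 or 3, and 772 without DSS mouse 1. Without DSS mouse 2 or 3 it was 481 and 645. With only the 6 libraries of this comparison in the fit it was 1179, and 456 of the 457 were still called in the same direction. With the pancreatic genes and DSS + EA mouse 2 left out it was 277, and with DSS + EA mouse 1 alone against control it was 54.

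**Figure D1:**
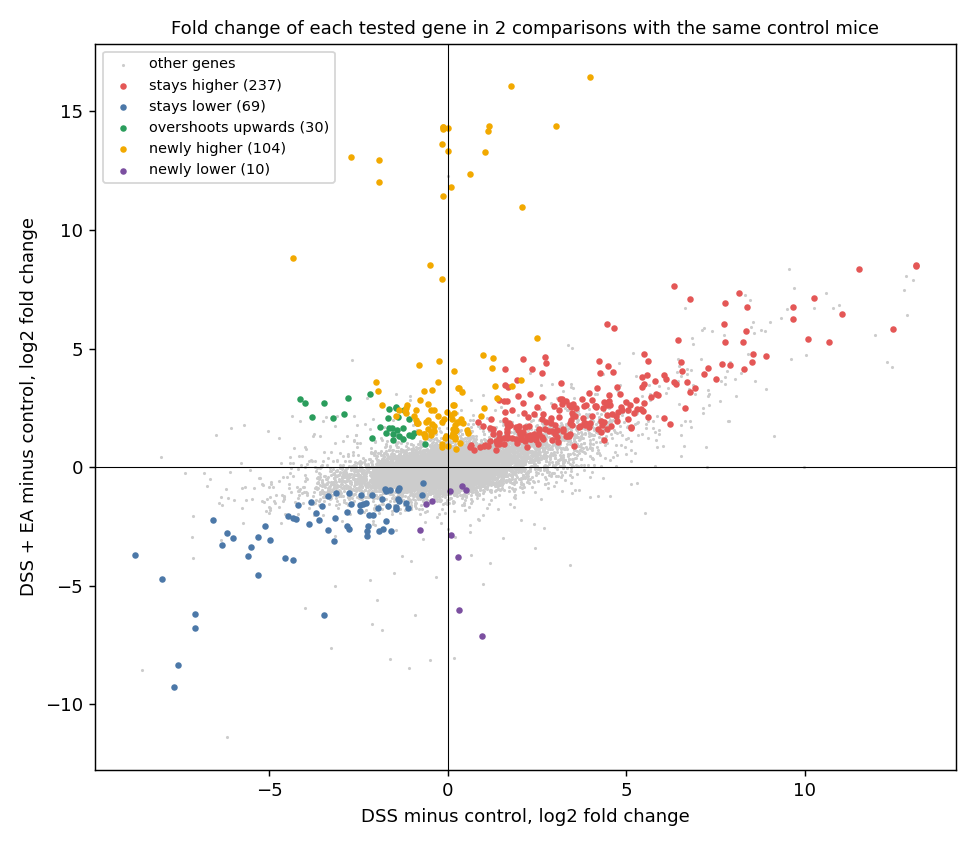
Log2 fold change against control of each of the 12566 tested genes, with DSS on the horizontal axis and DSS + EA on the vertical axis. Colours mark the groups of changed genes and the key gives their number. Both axes use the same 3 control mice, so the axes are not independent. The 30 genes at upper left were below control with DSS and above it after EA, and the pancreatic enzymes form the cloud above 11 on the vertical axis.

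Of the 30 genes that crossed from below to above control, 5 were in the antiviral interferon list and 2 in the interferon-gamma list. These lists held 16 and 21 of the 12566 tested genes and were chosen with earlier results of these data known. Isg15, a ubiquitin-like protein that is attached to other proteins in infected cells, was at 69.1, 181 and 383 CPM in control, 22.8, 19.3 and 49.0 CPM in DSS, and 1540, 1196 and 1993 CPM in DSS + EA mice. All DSS + EA mice were above all control mice, and all DSS mice below them. Among control mice, mouse 3 was the highest. The log2 fold change of DSS + EA over control was 2.90 ± 0.58 (SE, adjusted p = 0.0248), beside -2.80 for DSS over control. Ifit1, which binds foreign RNA lacking a host cap, was at 62.8, 142 and 249 CPM in control and 719, 557 and 834 CPM in DSS + EA mice, a log2 difference of 2.22 ± 0.48 (SE, adjusted p = 0.0338), and Rsad2, the antiviral enzyme viperin, rose by 2.46 ± 0.48 (SE, adjusted p = 0.0209).

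The same crossing was seen in other effector genes. Rnf213, a giant ubiquitin ligase, passed with the smallest p of the 30: 12.2, 16 and 18.4 CPM in control became 76.7, 70.2 and 100.2 CPM, a log2 difference of 2.41 ± 0.29 (SE, adjusted p = 0.00311). Herc6, the ligase for Isg15 in mice, rose by 2.54 ± 0.32 on the log2 scale (SE, adjusted p = 0.00426), Irgm1, a guanosine triphosphatase of vacuole defence, by 2.05 ± 0.36, and Eif2ak2, the kinase that stops translation on double-stranded RNA, by 1.43 ± 0.25. Ifi35 and Trim12a, an antiviral tripartite motif gene with a near-identical neighbour that also crossed, rose by 1.35 and 1.66. Gsdmd, the pore former of pyroptosis, was at 106, 95.8 and 84.7 CPM in control and 177, 174 and 207 CPM in DSS + EA mice, a smaller step of 0.96 ± 0.18 (SE, adjusted p = 0.0177).

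Metabolic genes crossed as well. Slc5a9, a sodium-coupled sugar transporter, was at 7.37, 8.31 and 5.75 CPM in control, 3.22, 3.26 and 2.50 CPM in DSS and 26.2, 16.1 and 25.1 CPM in DSS + EA mice (log2 fold change 1.64 ± 0.27, SE, adjusted p = 0.0113). Gmppb, which makes GDP-mannose for protein glycosylation, went from 42.4, 56.9 and 53.3 CPM in control to 109.9, 104 and 161 CPM, a difference of 1.30 ± 0.22 (SE, adjusted p = 0.0137). Rnf213 and Herc6 kept their call when any one of the 9 mice was left out. Irgm1, Eif2ak2, Ifi35 and Trim12a lost it without control mouse 1 or 2 or DSS + EA mouse 3. Isg15 and Rsad2 lost it without those or DSS + EA mouse 1, Gmppb without those or control mouse 3, Ifit1 without control mouse 1 or 2 or any DSS + EA mouse, and Gsdmd without any control or DSS + EA mouse. Slc5a9 lost it without control mouse 1 or DSS + EA mouse 1 or 3. The adjusted p in these fits was at most 0.141, in Ifit1. The class held 3 and 4 genes without control mouse 1 or 2, 13 and 2 without DSS + EA mouse 1 or 3, and 50 and 47 without DSS mouse 1 or 3.

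**Figure D2:**
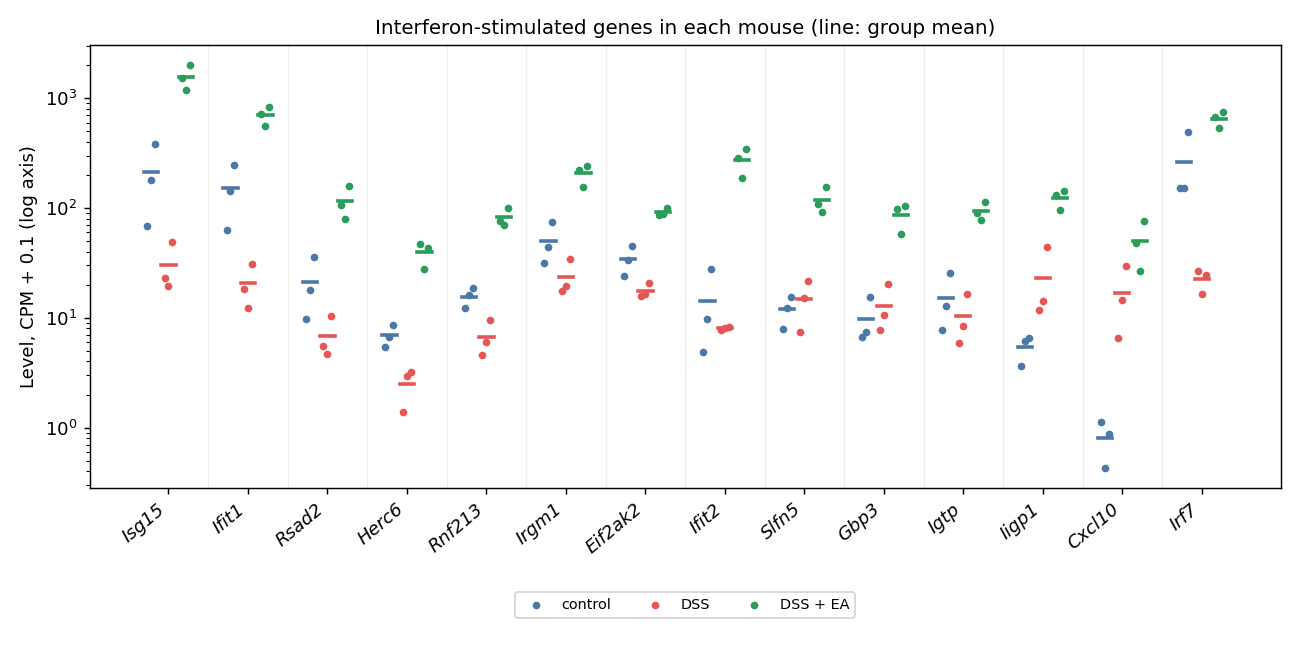
Level of 14 interferon-stimulated genes in each of the 9 mice, in CPM plus 0.1 on a log axis. Points are mice and lines are group means. Isg15 lay between 1196 and 1993 CPM in DSS + EA mice and between 69.1 and 383 CPM in control mice, and Irf7 shows the narrowest gap, because control mouse 3 reached 489.8 CPM.

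Promoters are shown for 4 of the 30 crossing genes because the shared response element can be read in them. The sequences are from RefSeq (GRCm38.p6) and run 250 bases before to 50 bases after the start, 5′ to 3′ on the gene's strand, at chr4:156200769-156201068 (minus) for Isg15, chr19:34640639-34640938 (plus) for Ifit1, chr12:26456403-26456702 (minus) for Rsad2 and chr11:48871371-48871670 (minus) for Irgm1. Capitals mark GAAA, NN and GAAA in a row, where N is any base, or the reverse complement, TTTC, NN and TTTC.
Isg15: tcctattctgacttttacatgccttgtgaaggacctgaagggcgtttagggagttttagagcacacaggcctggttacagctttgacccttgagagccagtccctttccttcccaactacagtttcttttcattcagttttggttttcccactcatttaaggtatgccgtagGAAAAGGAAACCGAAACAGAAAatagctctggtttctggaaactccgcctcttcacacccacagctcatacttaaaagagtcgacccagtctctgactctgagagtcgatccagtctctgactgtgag
Ifit1: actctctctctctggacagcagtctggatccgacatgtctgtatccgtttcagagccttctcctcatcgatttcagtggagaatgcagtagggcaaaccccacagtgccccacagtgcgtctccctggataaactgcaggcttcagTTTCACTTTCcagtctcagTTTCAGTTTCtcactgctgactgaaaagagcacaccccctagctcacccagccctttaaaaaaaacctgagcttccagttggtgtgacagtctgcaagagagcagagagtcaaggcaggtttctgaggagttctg
Rsad2: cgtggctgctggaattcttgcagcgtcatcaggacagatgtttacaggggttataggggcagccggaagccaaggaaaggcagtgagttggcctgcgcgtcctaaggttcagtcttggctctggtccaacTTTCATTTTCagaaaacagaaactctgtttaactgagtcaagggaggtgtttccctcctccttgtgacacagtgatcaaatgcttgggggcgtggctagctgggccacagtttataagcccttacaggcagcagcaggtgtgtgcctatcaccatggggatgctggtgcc
Irgm1: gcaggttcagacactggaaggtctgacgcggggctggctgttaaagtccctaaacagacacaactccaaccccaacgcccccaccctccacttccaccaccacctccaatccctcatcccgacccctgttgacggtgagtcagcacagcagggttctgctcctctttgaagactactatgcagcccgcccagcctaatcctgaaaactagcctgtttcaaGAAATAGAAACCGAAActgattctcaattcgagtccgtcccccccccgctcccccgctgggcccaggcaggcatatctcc
In Isg15 there were 3 overlapping matches, which began 78, 72 and 66 bases before the start. In Ifit1 they began 104 and 85 bases before it, in Rsad2 120, and in Irgm1 30 and 24 bases. A promoter was found for 21 of the 30 crossing genes by symbol, and 12 of these (57.1%) held the motif on either strand. The share was 27.5% of 80 genes that were newly higher, 9.15% of 142 that stayed higher and 2.17% of 46 that stayed lower, beside 4.05% of 8843 tested genes with a promoter, 3.63% of the 8543 not changed and 3.44% of all 32851 promoter windows of the same length. A match describes letters only and was not tested as a binding site.

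Other interferon-stimulated genes were newly higher, with no call between DSS and control. Ifit2, an RNA-binding relative of Ifit1, was at 4.83, 9.64 and 28 CPM in control, 7.72, 8.04 and 8.11 CPM in DSS and 287, 188 and 347 CPM in DSS + EA mice, a log2 fold change of 4.30 ± 0.55 (SE, adjusted p = 0.00423). Slfn5, a Schlafen family gene, rose by 3.33 ± 0.40 (SE, adjusted p = 0.00349) and Gbp3, a guanylate-binding protein of cell-autonomous defence, by 3.18 ± 0.45 (SE, adjusted p = 0.00585). Ly6e, a membrane protein that restricts virus entry, was abundant in all mice, at 532, 702 and 662 CPM in control and 1781, 1571 and 2104 CPM in DSS + EA. Mlkl, the executor of necroptosis, rose from 15, 20.3 and 26.4 CPM to 80.7, 63.5 and 99.0 CPM (1.98 ± 0.26 on the log2 scale, SE, adjusted p = 0.00445).

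Some immunoproteasome and peptide transport genes were among them. Psmb9, a catalytic subunit of the immunoproteasome, was at 46.2, 50.5 and 61.7 CPM in control and 187, 159 and 213 CPM in DSS + EA mice, and Psmb8, another such subunit, rose by 1.92 ± 0.30 on the log2 scale (SE, adjusted p = 0.0088). Tap1, which moves peptides into the endoplasmic reticulum, rose by 1.92 ± 0.43 (SE, adjusted p = 0.0426). Their partners Psmb10 and Tap2, at 0.88 and 0.78, were not called (adjusted p of 0.0819 and 0.399). Psmb10 passed by DESeq2 (adjusted p = 0.0348), with 2 groups per fit and without DSS mouse 1 or 2 (adjusted p of 0.0249 and 0.0312). Zbp1, a sensor of Z-form nucleic acids, Igtp, a relative of Irgm1, Mx1, an antiviral guanosine triphosphatase, and Gbp7 rose by 2.30, 2.65, 2.62 and 2.20 on the log2 scale. The class II molecule H2-Ab1 was at 311, 332 and 318 CPM in control, 101, 142 and 85.5 CPM in DSS and 482, 271 and 406 CPM in DSS + EA mice. These overlapped with control, and the difference of 0.27 ± 0.25 was not called (SE, adjusted p = 0.636).

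The smallest p among the 104 newly higher genes belonged to Upp1, uridine phosphorylase, which splits uridine to uracil and ribose phosphate (chr11:9118103-9136170, plus strand). It was at 32, 27.6 and 28 CPM in control, 27, 32.4 and 38.4 CPM in DSS and 195, 159 and 188 CPM in DSS + EA mice. The log2 fold change was 2.63 ± 0.20 (SE, adjusted p = 0.000748), beside 0.16 for DSS over control. Ido1, which degrades tryptophan, rose from 3.81, 1.99 and 8.05 CPM to 53.0, 40.7 and 67.9 CPM. Hk2, an inducible hexokinase, rose by 1.40 ± 0.33 (SE, adjusted p = 0.0499), just inside the threshold.

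The interferon lists were chosen with earlier results of these data known, so their counts are a description. Over them, 9 of 16 tested antiviral genes and 12 of 21 tested interferon-gamma and antigen presentation genes were higher in DSS + EA than in control mice, against 3.00% of all genes. None was lower by edgeR or DESeq2, or at an unadjusted P under 0.05. Every tested gene of both lists had a positive fitted difference, with medians of 2.26 and 1.92 beside 0.00 over all genes tested. With DSS the same lists had medians of -2.04 and -0.43. The summed level of the antiviral list was 521 to 1863 CPM in control, 123 to 262 CPM in DSS and 3858 to 6337 CPM in DSS + EA mice, without overlap. Irf7, the amplifier of type I interferon, was at 153, 151 and 489.8 CPM in control and 678, 533 and 744 CPM in DSS + EA mice, and missed the threshold (1.30 ± 0.43, SE, adjusted p = 0.156). Without control mouse 3 the difference was 2.10 and the adjusted p = 0.0107. Ifit3 missed it at 2.90 ± 0.69 (SE, adjusted p = 0.0509). It passed by DESeq2 (adjusted p = 0.000484), without a filter, with 2 groups per fit, with a replicate block, and without control mouse 3 or DSS mouse 1 or 3 (adjusted p of at most 0.043).

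Interferons themselves were at the edge of detection. Counts of Ifng, the Th1 cytokine, were 0, 0 and 0 in control, 0, 1 and 0 in DSS and 3, 1 and 0 in DSS + EA mice. Counts of Ifnl3, an interferon lambda of epithelia, were 0 in every control and DSS mouse and 3, 1 and 6 in DSS + EA mice. Counts of Ifnl2, its near copy, were 0, 0 and 1 in control, 0 in DSS and 1, 2 and 2 in DSS + EA mice. Those of Ifnb1 were 2, 0 and 0 in DSS + EA mice and 0 elsewhere. All were too few to be tested, so a difference was not detectable at this depth.

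Among the newly higher genes, the pancreatic acinar group was uneven between mice. Of 19 tested genes of the list, 15 were higher, against 3.00% of all genes. Of the 19, 4 had no count in any control mouse. Genes near 0 in control and DSS mice, such as Amy2a5, passed the count filter only through DSS + EA mice. The tally was therefore partly set by the filter and is a description. Counts of Amy2a5, pancreatic amylase, were 0 in each control mouse, 0, 0 and 1 in DSS and 246, 11349 and 10935 in DSS + EA mice. Pooled over the 3 DSS + EA mice, they were at least 7870-fold higher against a floor of 3 counts over the control group. This pooled bound and the next ones rest mostly on mice 2 and 3 and do not hold for mouse 1 alone. Counts of Try5, a trypsin, were 0 in control and 150, 22189 and 5711 in DSS + EA mice (at least 9798-fold), and those of Cpb1, carboxypeptidase B, were 85, 4414 and 2335 (at least 2387-fold). Amy2a2, Amy2a3 and Amy2a4 are near-identical copies among which reads may be split. The acinar products Clps and Sycn, which control colon also contained, were not called. Sycn was at 1293, 1808 and 508 CPM in control and 259.9, 1128 and 806 CPM in DSS + EA mice.

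DSS + EA mouse 1, with fewer acinar counts than mice 2 and 3 but more of Amy2a5, Try5 and Cpb1 than any control mouse, had a summed antiviral level of 5131 CPM, beside 3858 and 6337 CPM in mice 2 and 3. Fabp6, the bile acid binding protein of the ileum, was at 8.39, 4.99 and 13.8 CPM in control and 77.0, 154 and 27.6 CPM in DSS + EA mice (3.26 ± 0.72 on the log2 scale, SE, adjusted p = 0.0383). The other 5 tested genes of the small intestinal list were not called, and 3.00% of all genes were higher. Without the acinar genes and DSS + EA mouse 2, 66 genes were newly higher in place of 104, 59 of them among the 104, and with DSS + EA mouse 1 alone there were 18. Without control mouse 1, control mouse 2 or DSS + EA mouse 3 there were 19, 30 and 30. Upp1, Slfn5, Ly6e, Ifit2, Mlkl, Gbp3 and Psmb9 kept their call when any one mouse was left out. Amy2a2, Amy2a3, Amy2a4 and Amy2a5 did so too. Psmb8 lost it without control mouse 1 or 2, Igtp, Ido1 and Cpb1 without those or DSS + EA mouse 3, and Zbp1 without those or DSS + EA mouse 1 or 3. Try5 lost it without any control mouse or DSS + EA mouse 3, Gbp7 and Hk2 without any control mouse or DSS + EA mouse 1 or 3, and Fabp6 without any control mouse or DSS + EA mouse 1 or 2. Mx1 lost it without any control or DSS + EA mouse, and Tap1 without control mouse 1 or 2, DSS mouse 2 or any DSS + EA mouse. The adjusted p in these fits was at most 0.228, in Hk2.

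Of the 237 genes that stayed higher, 148 were below DSS in DSS + EA mice, 11 were above it and 78 were not called against it. Their median log2 fold change over control was 2.27 in DSS + EA and 3.52 in DSS. The 11 above DSS included the interferon-induced Iigp1, Cxcl10, Tgtp1 and Il18bp, and Ly6a. Iigp1, a guanosine triphosphatase induced by interferon gamma, was at 3.56, 5.98 and 6.51 CPM in control, 11.6, 14.1 and 43.7 CPM in DSS and 131, 95.2 and 142 CPM in DSS + EA mice (4.54 ± 0.53 over control, SE, adjusted p = 0.00286). Cxcl10, a chemokine for activated T cells, had counts of 4, 1 and 2 in control and 158, 71 and 242 in DSS + EA mice. Ly6a, the Sca-1 antigen of regenerating crypts, was at 311, 409.9 and 420.0 CPM in control, 1385, 1138 and 1108 CPM in DSS and 2556, 2019 and 3352 CPM in DSS + EA mice, higher than DSS by 1.13 on the log2 scale (adjusted p = 0.00547). Tgtp1, a GTPase with a near-identical copy, and Il18bp, the decoy of interleukin 18, rose over control by 4.14 and 3.47.

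Some genes of matrix remodelling stayed higher. Mmp3, stromelysin 1, was at 1.78, 2.66 and 1.53 CPM in control, 463, 1036 and 810.5 CPM in DSS and 49.9, 65.7 and 50.1 CPM in DSS + EA mice, so that treated mice lay between the others without overlap. It was 4.77 ± 0.38 above control (SE, adjusted p = 0.000748) and 3.80 below DSS on the log2 scale. Mmp10, stromelysin 2, Mmp13, a collagenase, and Timp1, the inhibitor of these proteases, were above control by 4.45, 3.10 and 3.59. Of the 14 tested metalloproteinases and inhibitors 7 were higher, with a median of 1.92 (4.32 with DSS). Among them was Mmp7, matrilysin, at 2.94 over control in DSS + EA and 2.64 in DSS. Of 14 collagens 6 were higher, with a median of 1.02 (2.21 with DSS). Over all genes tested, 3.00% were higher. Col1a2, a chain of fibrillar collagen I, was at 69.1, 67.8 and 62.1 CPM in control, 274, 341 and 369 CPM in DSS and 143, 146 and 165 CPM in DSS + EA mice (1.19 ± 0.17, SE, adjusted p = 0.00687), and Col18a1, a basement membrane collagen, was 2.06 ± 0.23 above control (SE, adjusted p = 0.00261).

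Serpina3n, Saa3, Hp and several complement genes also stayed higher. Serpina3n, a secreted protease inhibitor with close relatives in its cluster (chr12:104406729-104414329, plus strand), was at 7.88, 12.6 and 8.05 CPM in control, 664, 569 and 757 CPM in DSS and 100.1, 164 and 113 CPM in DSS + EA mice (3.72 ± 0.28 over control, SE, adjusted p = 0.000748). Saa3, serum amyloid A3, was at 7.37, 7.98 and 14.6 CPM in control and still at 748, 1272 and 601 CPM in DSS + EA mice, and Hp, haptoglobin, was 4.33 ± 0.47 above control (SE, adjusted p = 0.00232). The related Saa1 and Saa2 were at 1.04 and 3.45 over control and were not called (adjusted p of 0.397 and 0.186). Of 15 tested complement genes 10 were higher, against 3.00% of all genes, with a median of 1.56 (2.31 with DSS). C4b was at 6.35, 6.98 and 10.3 CPM in control, 85.6, 82.1 and 89.9 CPM in DSS and 43.2, 54.2 and 39.97 CPM in DSS + EA mice (2.54 ± 0.24, SE, adjusted p = 0.00131). C3, the central component, was above control by 2.56 and below DSS by 1.25 on the log2 scale. Cfb, of the alternative pathway, and C1qa, made by macrophages, were above control by 1.87 and 1.74 and were not called against DSS.

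Neutrophil and chemokine lists had members that stayed higher beside members that were not called. S100a8, a calgranulin of neutrophils, had counts of 6, 6 and 1 in control, 5379, 72682 and 61439 in DSS and 2115, 1193 and 1176 in DSS + EA mice, 8.47 ± 0.98 above control on the log2 scale (SE, adjusted p = 0.00271). S100a9, its partner, had 3 counts over the control mice and 662, 234 and 336 in DSS + EA mice, a ratio of 430.3 (95% counting interval 147 to 2090). Of 13 tested neutrophil genes 5 were higher, against 3.00% of all genes. All 13 had positive differences, and the median was 5.18, or 4.13 with the genes at 0 in control set to their lower bound (9.14 with DSS). Ltf and Trem1 had no count in control mice, and several others had 1. Such genes passed the count filter through DSS or DSS + EA mice, so a positive sign was favoured in advance. These list counts are a description. Cxcl1, the main neutrophil attractant, had counts of 2, 2 and 0 in control, 1255, 3111 and 1322 in DSS and 52, 57 and 65 in DSS + EA mice (5.41 ± 0.48, SE, adjusted p = 0.0012). Cxcl13, which guides B cells, was at 15, 17.6 and 6.13 CPM in control, 577, 1857 and 1861 CPM in DSS and 77.9, 171 and 106 CPM in DSS + EA mice (3.18 ± 0.54, SE, adjusted p = 0.0128). Of 25 tested chemokine ligands, 11 were higher, against 3.00% of all genes, with a median of 2.03 (2.84 with DSS). Pf4 and Ccl11, at -0.14 and 0.08 against control, were among the 14 not called, with 3.83 and 3.73 for DSS over control.

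The cytokines the study measured differed in how far their RNA lay from control. The study measured Il1b, Il6, Tnf and Ifng as protein and Cxcl1, Cxcl3, Cxcl5 and Cxcl13 by qRT-PCR. It reported each lower with EA than with DSS, and Cxcl1 protein as well. The calls given here are against control unless DSS is named, so they do not repeat that comparison. Ifng RNA had too few counts to be tested. Il1b was at 1.02, 1.33 and 3.07 CPM in control, 36.7, 151 and 269.6 CPM in DSS and 133, 27.6 and 52.7 CPM in DSS + EA mice, 5.34 ± 0.93 above control (SE, adjusted p = 0.0137) and not called against DSS (adjusted p = 0.23). Tnf rose over control by 2.78 ± 0.65 (SE, adjusted p = 0.0467). Il6 had counts of 0, 1 and 1 in control, 93, 255 and 109 in DSS and 4, 7 and 8 in DSS + EA mice, and missed the threshold against control (adjusted p = 0.0574). Il6 passed without a filter, with 2 groups per fit, with a replicate block, and without DSS mouse 1 or 2 (adjusted p of 0.0457 and 0.0473). Cxcl3 counts were 0 in each control mouse and 31, 19 and 6 in DSS + EA mice, also uncalled (adjusted p = 0.122). Cxcl3 passed by DESeq2 (adjusted p = 0.000151), without a filter, with 2 groups per fit and without DSS mouse 1 (adjusted p = 0.0163). Cxcl5, with counts of 1, 1 and 0 in control and 12, 18 and 17 in DSS + EA mice, passed, with a ratio of 24.6 (95% counting interval 6.45 to 209).

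Of 18 tested macrophage and monocyte genes, 17 had positive differences and 5 were called, all higher, against 3.00% of all genes. Of these 5, C1qa, C1qb and C1qc were also counted in the complement list. At an unadjusted P under 0.05, 12 of the 18 were higher, and DESeq2 called 10. Cd86, a costimulatory molecule of activated macrophages, was called, with counts of 2, 2 and 4 in control and 23, 13 and 24 in DSS + EA mice (2.88 ± 0.67, SE, adjusted p = 0.0467). Arg1, the arginase of alternatively activated macrophages, was at 1.02, 3.32 and 3.83 CPM in control and 19.2, 20.2 and 24.7 CPM in DSS + EA mice and was not (3.02 ± 0.88, SE, adjusted p = 0.102). Arg1 passed by DESeq2 (adjusted p = 0.00322), without a filter, with 2 groups per fit, with a replicate block, and without DSS mouse 1 or 3 (adjusted p of 0.0326 and 0.00735). Adgre1, the F4/80 antigen, was at 5.34, 10.6 and 14.2 CPM in control and 13.4, 11.2 and 11.7 CPM in DSS + EA mice. The study stained colon for F4/80 with Cd86 or with Arg1. It reported less of the first pair and more of the second with EA than with DSS. The values here are bulk RNA against control, so they do not speak to that comparison. Of 7 T and NK cell genes 0 were called by edgeR, with 5 higher at an unadjusted P under 0.05 and 1 by DESeq2. Cd4 was at 2.54, 1.66 and 2.68 CPM in control and 2.13, 3.36 and 5.71 CPM in DSS + EA mice.

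**Figure D3:**
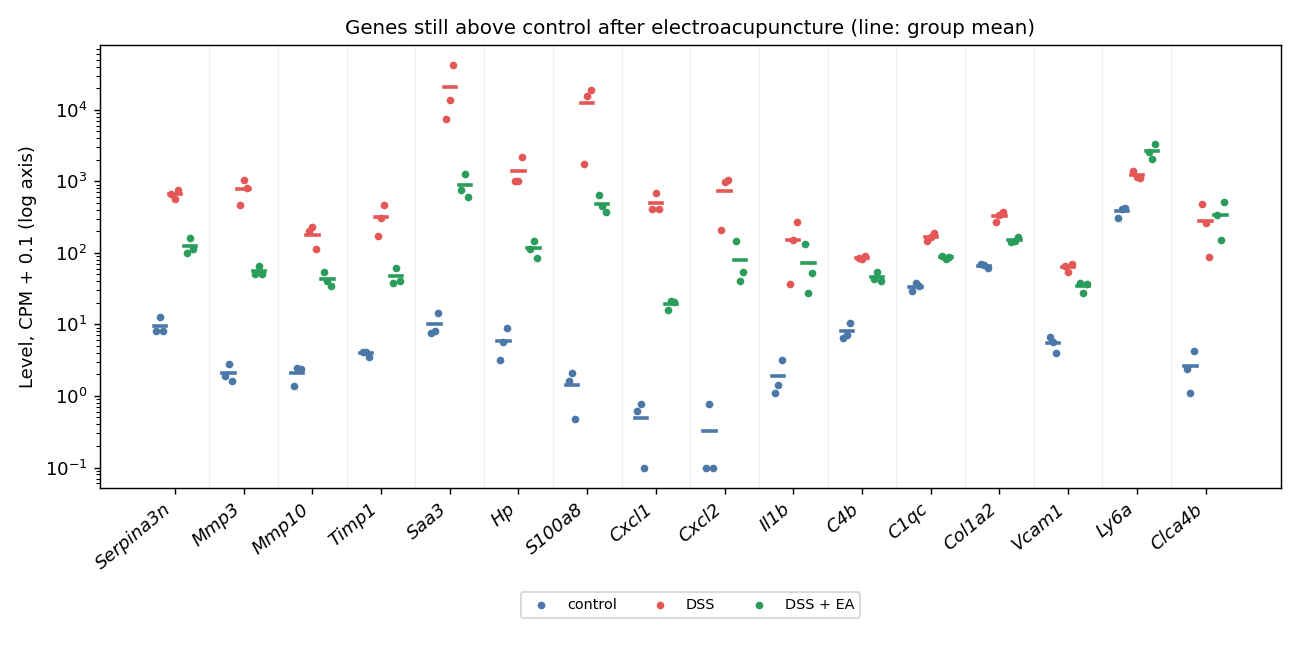
Level of 16 genes that stayed above control, in each of the 9 mice, in CPM plus 0.1 on a log axis. Points are mice and lines are group means. Mmp3 and Serpina3n in DSS + EA mice lay between control and DSS without overlap, whereas Ly6a was highest in DSS + EA, at 2019 to 3352 CPM.

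Vessel and epithelial genes added to the list. Vcam1, the adhesion molecule of inflamed endothelium, was at 6.61, 5.65 and 3.83 CPM in control and 38.3, 27.3 and 36.5 CPM in DSS + EA mice (2.64 ± 0.26, SE, adjusted p = 0.0018), while Pecam1, a general endothelial marker, was at 17.8, 19.9 and 14.9 CPM and 18.6, 20.2 and 18.1 CPM. Clca4b, a secreted epithelial protein of the chloride channel accessory family, stayed as high as with DSS: 2.29, 0.997 and 4.22 CPM in control, 483, 259.6 and 87.4 CPM in DSS and 343, 154 and 509 CPM in DSS + EA mice (7.08 ± 0.82, SE, adjusted p = 0.00271). The metallothionein Mt2 was at 59.5, 36.2 and 41.4 CPM in control, 2457, 3299 and 3506 CPM in DSS and 155, 232 and 189 CPM in DSS + EA mice. Reg3b, an antimicrobial lectin, varied too much to be called: 143, 33.2 and 1125 CPM in control, 13442, 92.6 and 25.9 CPM in DSS and 23040, 10405 and 12860 CPM in DSS + EA mice (5.15 ± 2.07, SE, adjusted p = 0.239). Its DSS + EA and control mice did not overlap, and the adjusted p was 0.0366 without DSS mouse 1 and 0.0287 with only the 6 libraries of this comparison in the fit.

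The count of 237 was 66, 93 and 122 without control mouse 1, 2 or 3, 137, 153 and 87 without DSS + EA mouse 1, 2 or 3, and 388 without DSS mouse 1. Serpina3n, Mmp3, Mmp10, Mmp13, Timp1, Saa3, Hp, S100a8, S100a9, Cxcl1, C4b, C3, Cfb, C1qa, Col1a2, Col18a1, Vcam1, Mt2, Ly6a, Iigp1, Cxcl10, Tgtp1, Il18bp and Clca4b kept their call when any one mouse was left out. Mmp7 lost it without control mouse 1 or 2, DSS mouse 2 or any DSS + EA mouse (adjusted p of at most 0.216), Lcn2 without control mouse 1 or 2 (at most 0.0674), Nos2 without those or DSS + EA mouse 3 (at most 0.0778), and Chil3 without any control or DSS + EA mouse (at most 0.124). Cxcl13 lost it without control mouse 1 (adjusted p = 0.0728), Il1b without control mouse 1 or 2 (at most 0.0916), Cxcl5 without any control mouse or DSS + EA mouse 2 or 3 (at most 0.1254), Tnf without any control mouse, DSS mouse 2 or DSS + EA mouse 1 or 3 (at most 0.203), and Cd86 without any control or DSS + EA mouse or DSS mouse 2 (at most 0.219).

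Of the 69 genes that stayed lower, 26 were above DSS and 43 were not called against it. Their median log2 fold change was -2.14 in DSS + EA and -2.81 in DSS. Gsdmc2, Gsdmc3 and Gsdmc4, near-identical gasdermin C genes of colonic surface cells between which reads may be split, were all lower. Gsdmc3 was at 183, 378 and 159 CPM in control, 3.54, 2.82 and 2.50 CPM in DSS and 25.6, 26.9 and 22.2 CPM in DSS + EA mice. It fell by 3.27 ± 0.33 on the log2 scale (SE, adjusted p = 0.00184) and was above DSS by 3.06. Gsdmc2 was at 638, 1832 and 617 CPM in control and 111, 92.3 and 97.7 CPM in DSS + EA mice, a fall of 3.36 ± 0.41 (SE, adjusted p = 0.00349).

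The epithelial defence list went both ways, with 4 of 16 tested genes higher, 3 lower and a median of 1.28. Over all genes tested, 3.00% were higher and 0.637% lower. Saa3, Lcn2, Hp and Nos2 were the genes that were higher, and Ang4, Mptx1 and Itln1 those that were lower. Ang4, an antimicrobial ribonuclease (chr14:51763878-51773590, minus strand), was at 4394, 16058 and 5339 CPM in control, 8.69, 126 and 1.87 CPM in DSS and 21.6, 10.5 and 47.6 CPM in DSS + EA mice, a fall of 8.33 ± 1.53 on the log2 scale (SE, adjusted p = 0.0168). Mptx1, a mucosal pentraxin, was among the most abundant transcripts of control colon, at 20171, 58451 and 15277 CPM, and was at 54.2, 13.8 and 85.0 CPM in DSS + EA mice (adjusted p = 0.0356). Itln1, a lectin for microbial sugars, was at 78.5, 398 and 129 CPM in control and 1.22, 6.72 and 0.634 CPM in DSS + EA mice, with an adjusted p of 0.00874. None of these 3 was called between DSS + EA and DSS, with differences of -0.78, -1.60 and 0.88 and adjusted p of 0.618, 0.412 and 0.575 by edgeR. Control mouse 2 was the highest of the control mice for all 3, as it was for the gasdermins C.

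Other genes of the group had other roles. Tppp3, a tubulin-binding protein, was at 111, 122 and 115 CPM in control and 33.5, 26.9 and 26.6 CPM in DSS + EA mice, a fall of 2.00 ± 0.23 (SE, adjusted p = 0.00271), and its relative Tppp fell by 1.95. Dio1, which activates thyroid hormone, was at 34.1, 23.3 and 29.1 CPM in control, 0, 0.435 and 0.624 CPM in DSS and 6.39, 2.61 and 3.17 CPM in DSS + EA mice. Scin, an actin-severing protein, Hsbp1l1 and Bex4 fell by 3.06, 2.14 and 2.90. Tnfrsf17, the survival receptor of plasma cells, had counts of 29, 33 and 21 in control and 4, 1 and 5 in DSS + EA mice. It was the only 1 of 8 tested B and plasma cell genes that edgeR called, beside 0.637% of all genes lower, while DESeq2 called 2 lower. Jchain, the joining chain of secreted antibodies, was at -1.86 (adjusted p = 0.0509). Jchain passed by DESeq2 (adjusted p = 0.00153), by RLE scaling, without a filter, with 2 groups per fit and without DSS mouse 1 or 3 (adjusted p of 0.0365 and 0.0105).

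Further members were picked out after their values were seen. The neuropeptide genes Nmu, Calcb and Grp fell by 3.13, 2.72 and 2.70 on the log2 scale and were not called against DSS. Calcb was at 18.6, 36.6 and 23.4 CPM in control, 10.9, 4.78 and 4.99 CPM in DSS and 3.04, 3.36 and 5.39 CPM in DSS + EA mice. Retnla and Mgl2, which are used as markers of alternatively activated macrophages, fell by 3.85 and 2.14. Other such markers had differences of the opposite sign: Chil3 was called at 5.26, and Arg1, Cd163 and Mrc1 were at 3.02, 1.44 and 0.90 and not called. Gsdmc2, Gsdmc3, Tppp3, Tppp, Dio1, Scin, Hsbp1l1, Bex4 and Calcb kept their call when any one mouse was left out. Ang4 lost it without control mouse 1 or 2 or any DSS + EA mouse (adjusted p of at most 0.0788), Mptx1 without any control or DSS + EA mouse (at most 0.151), Itln1 and Nmu without DSS + EA mouse 3 (at most 0.0596), Tnfrsf17 without control mouse 2 (0.0594), Retnla without control mouse 2 or DSS + EA mouse 1 or 3 (at most 0.0826), Mgl2 without control mouse 2 or 3 or any DSS + EA mouse (at most 0.12), Gsdmc4 without DSS + EA mouse 2 or 3 (at most 0.0712), and Grp without control mouse 1 or 2 or DSS + EA mouse 1 (at most 0.069). The count of 69 was 21, 19 and 42 without control mouse 1, 2 or 3, 28, 28 and 13 without DSS + EA mouse 1, 2 or 3, and 138 without DSS mouse 1.

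**Figure D4:**
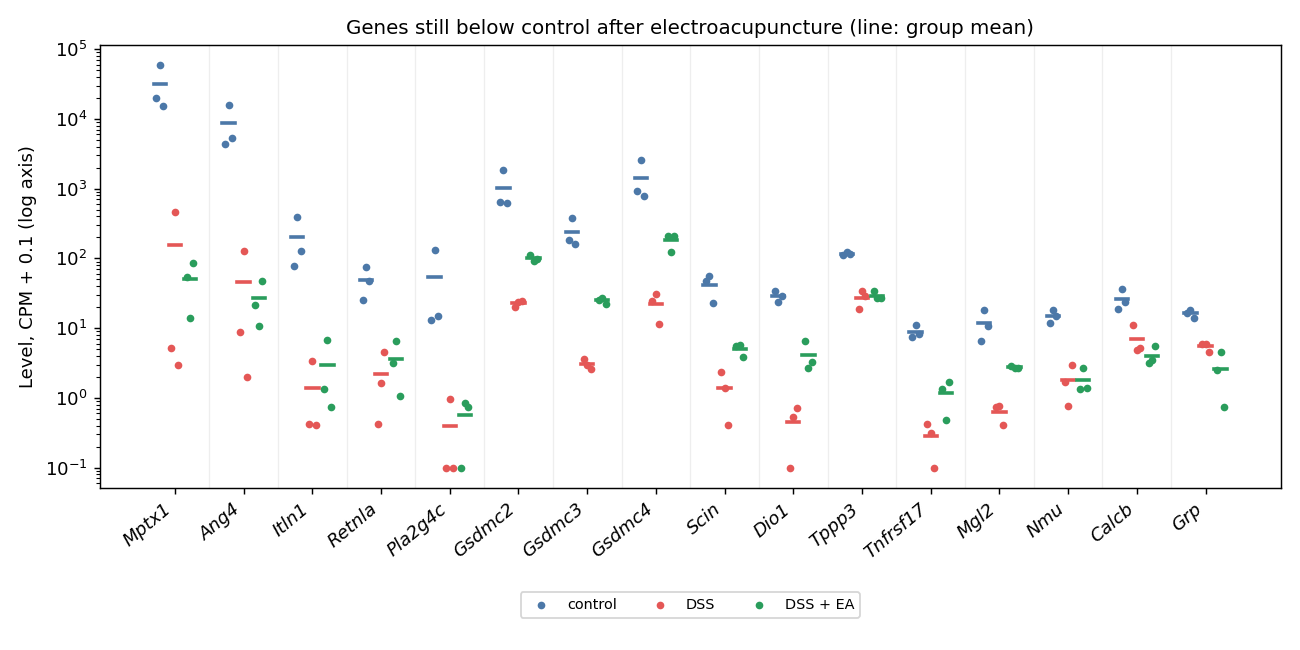
Level of 16 genes that stayed below control, in each of the 9 mice, in CPM plus 0.1 on a log axis. Points are mice and lines are group means. The Gsdmc genes in DSS + EA mice lay between DSS and control, while Ang4, Mptx1 and Itln1 overlapped with DSS.

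Only 10 genes were newly lower, 3 of them unannotated loci. Uchl1, a deubiquitinase abundant in enteric neurons, was at 50.1, 63.5 and 57.5 CPM in control, 75.0, 70.8 and 82.7 CPM in DSS and 32.6, 36.2 and 29.8 CPM in DSS + EA mice, a fall of 0.79 ± 0.18 (SE, adjusted p = 0.041). The other 10 tested genes of the neuronal, glial and pacemaker list were not called, and 0.637% of all genes were lower. Hist1h1c, a linker histone, was at 69.6, 53.5 and 47.9 CPM in control and 26.5, 15.7 and 21.3 CPM in DSS + EA mice (adjusted p = 0.0338). Irf2bp2, a corepressor that binds IRF2, and Gabarapl1, of the autophagosome membrane, fell by 0.97 and 0.99 (adjusted p of 0.0342 and 0.0344) and were picked out after their values were seen. Tmem179 had counts of 9, 7 and 9 in control and 1, 1 and 1 in DSS + EA mice, and the nonagouti gene a had 7, 12 and 4 in control and 0 in every DSS + EA mouse. None of these 6 kept its call with each mouse left out in turn: Uchl1, Hist1h1c and Tmem179 lost it without any of the control or DSS + EA mice, a without any of those or DSS mouse 2 or 3, Irf2bp2 without any control mouse or DSS + EA mouse 1 or 3, and Gabarapl1 without any control mouse or DSS + EA mouse 2 or 3 (adjusted p of at most 0.178). The count of 10 was 1, 1 and 5 without control mouse 1, 2 or 3, 6, 4 and 1 without DSS + EA mouse 1, 2 or 3, and 22 without DSS mouse 1.

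Many epithelial lists that DSS lowered had no called gene in DSS + EA mice. All 14 tested goblet cell genes were lower with DSS (median -3.16). In DSS + EA mice 0 were called by edgeR, 4 were lower at an unadjusted P under 0.05 and 2 by DESeq2, and the median was -0.70. Still, 12 of the 14 differences were negative. In 13 of the 14 genes the DSS + EA and control mice did not overlap, beside 32.2% of all genes. Muc2 was at 929.8, 885 and 776 CPM in control and 332, 385 and 287 CPM in DSS + EA mice, without overlap (-1.37 ± 0.75, SE, adjusted p = 0.398), and with only the 6 libraries of this comparison in the fit the adjusted p = 0.0017. Fcgbp, a mucus-binding partner of Muc2, was at 1929, 2832 and 1081 CPM in control, 138, 80.8 and 10.9 CPM in DSS and 418, 402 and 318 CPM in DSS + EA mice (adjusted p = 0.101, 0.00635 by DESeq2 and 0.00788 without DSS mouse 3). Colonocyte, tight junction and drug metabolism lists had 0 calls by edgeR. At an unadjusted P under 0.05, 1 colonocyte gene was higher and 2 were lower, 4 drug metabolism genes were lower and 0 tight junction genes passed, and DESeq2 called 1 colonocyte gene lower. Over all 12566 genes tested, 2135 passed at that unadjusted P in either direction. The 21 tested colonocyte genes had a median of -0.06 (-1.84 with DSS), the 15 tight junction genes -0.23 (-1.43 with DSS) and the 23 genes of drug and steroid metabolism -0.52 (-2.07 with DSS). Smooth muscle genes were all negative, 14 of 14, with a median of -0.58. By edgeR 0 were called, 8 were lower at an unadjusted P under 0.05 and 3 by DESeq2. Myh11, smooth muscle myosin, was at 634, 574 and 489 CPM in control and 359, 382 and 349.6 CPM in DSS + EA mice (-0.64 ± 0.20, SE, adjusted p = 0.12, and 0.021 with 2 groups per fit).

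**Figure D5:**
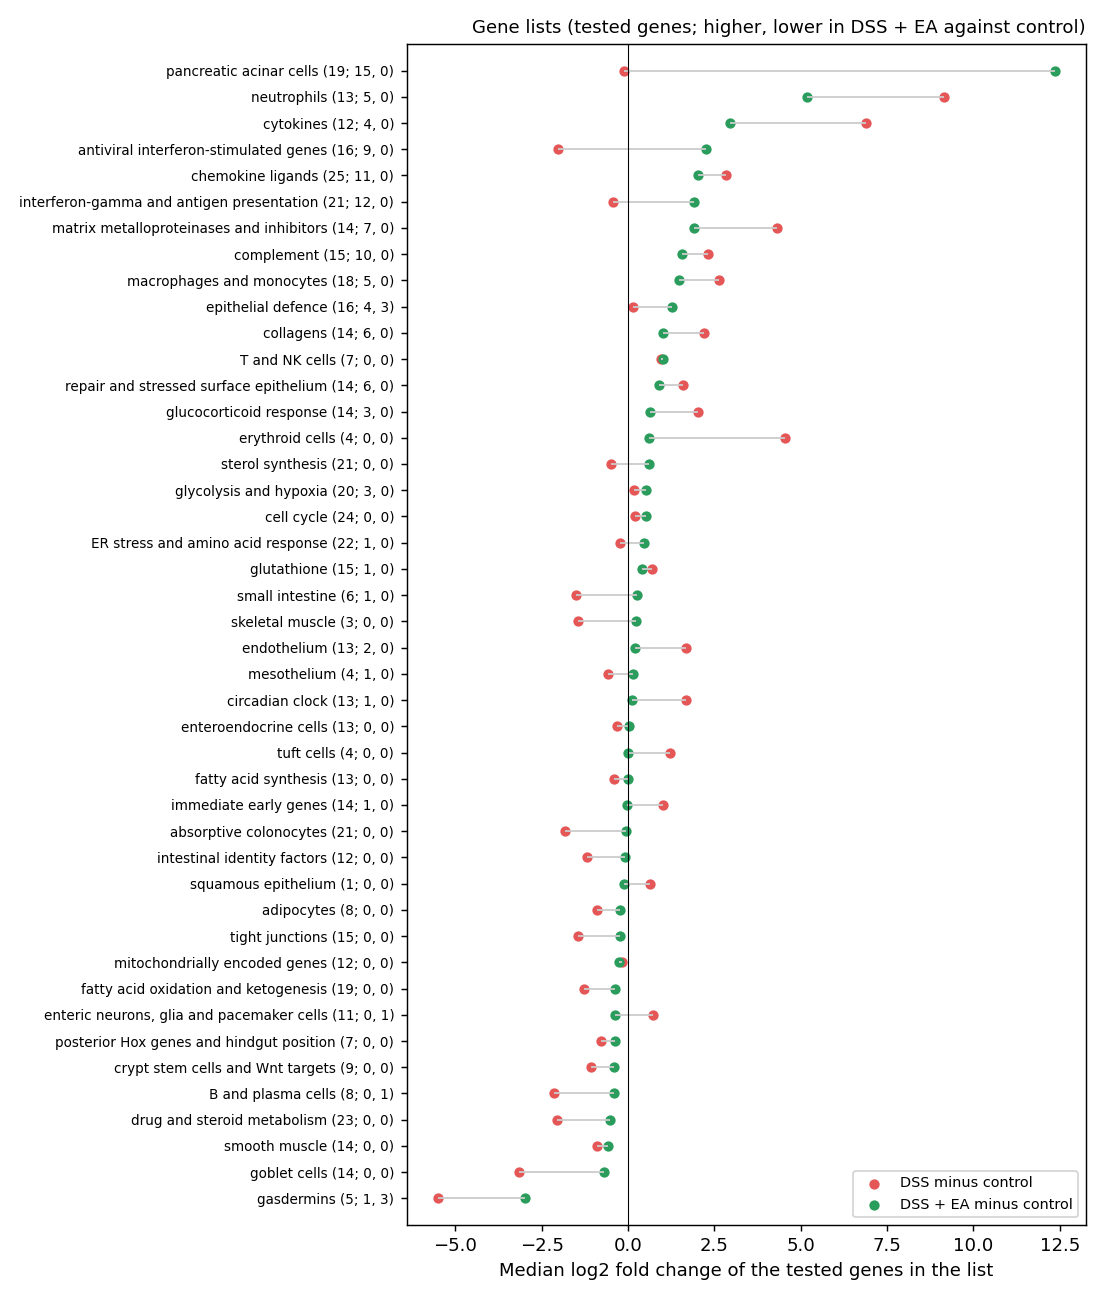
Median log2 fold change over control of the tested genes of each of 44 gene lists, for DSS and for DSS + EA. Labels give the number tested and, after it, the number higher and lower in DSS + EA against control. The antiviral list moves from -2.04 to 2.26, whereas goblet cell genes move from -3.16 to -0.70 and gasdermins from -5.51 to -2.99.

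Erythroid genes, all raised by DSS, had no call. Hba-a2, a haemoglobin chain, was at 52.3, 53.2 and 46.4 CPM in control, 1526, 523 and 742 CPM in DSS and 96.2, 65.7 and 66.0 CPM in DSS + EA mice, and 0 of 4 tested erythroid genes were called against control by edgeR or DESeq2, or at an unadjusted P under 0.05. Of 24 cell cycle genes and 21 sterol synthesis genes 0 were called by edgeR, with medians of 0.51 and 0.61. At an unadjusted P under 0.05, 8 and 7 were higher (1 and 0 by DESeq2), beside 2135 of all 12566 genes in either direction. In glycolysis, Hk2, Eno1, the enolase, and Pkm, pyruvate kinase, were the 3 of 20 genes called, beside 3.64% of all genes. Eno1 and Pkm stayed higher, by 0.89 and 0.72, and lost their call without any control or DSS + EA mouse, Pkm also without DSS mouse 2 (adjusted p of at most 0.243). Ciart, a circadian repressor, was the 1 clock gene of 13 called, beside 3.64% of all genes. Counts of Ciart were 1, 0 and 1 in control, 67, 47 and 31 in DSS and 5, 13 and 9 in DSS + EA mice. Its call was lost without any control mouse, DSS mouse 2 or DSS + EA mouse 2 or 3 (adjusted p of at most 0.196). The reference genes Gapdh and Actb were not called. Gapdh was at 2310, 2715 and 2919 CPM in control and 3502, 3660 and 4283 CPM in DSS + EA mice (0.53 ± 0.19, SE, adjusted p = 0.181).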

How the data were processed

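Total RNA from colon was converted to cDNA, amplified and sequenced on nanopore flow cells, and the authors deposited raw read counts per gene or unannotated locus for all 9 libraries. Genome build mm10 is given in the submitters' processing notes; the aligner, counter, annotation and use of strand are not given in the sources used here, so overlapping genes and near-identical copies are uncertain. Of 27733 lines, 14 held no counts, and 0 columns came from other samples. Genes with enough counts (filterByExpr) were scaled by TMM and tested by edgeR's quasi-likelihood test (edgeR 4.0.16, limma 3.58.1, R 4.3.3) with all 9 libraries in 1 fit and Benjamini-Hochberg adjustment; DESeq2 1.42.0 was an alternative. Tables and figures used Python 3.11.15, pandas 2.3.3 and matplotlib 3.10.9. The scripts were tested on simulated data. Intervals and floors cover counting error only.

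A gene stayed higher or lower when DSS and DSS + EA both differed from control in that direction, crossed when they differed in opposite directions, and was new when DSS + EA differed from both other groups and DSS was not called. Named genes were, per class, the 8 with the smallest P, an absolute log2 fold change of at least 1 and no overlap with control (for new genes also none with DSS, and a DSS change under 1), then the first 2 of each of 44 lists with up to 5 changed members a direction, and the genes the study measured. Members and lists were chosen with earlier results of these data known. Irf7, Ifit3, Psmb8, Psmb9, Tap1, Ido1, Tgtp1, Il18bp, Clca4b, H2-Ab1, Clps, Sycn, Ifnl2, Ifnl3, Ifnb1, Pf4, Ccl11, Mmp7, Saa1, Saa2, Psmb10, Tap2, Cd163, Mrc1 and Jchain were added after their values were seen. So were Nmu, Calcb, Grp, Retnla, Mgl2, Irf2bp2 and Gabarapl1. The labels do not say whether replicates shared a cage or day, so p-values measure the spread between these samples. Replicates were compared by chi-square and none was a copy of another (8.99 to 57.0 per degree of freedom).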

Additional observations from a re-analysis of the deposited data

How the results depend on the processing

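Scaling by RLE or by library totals and a prior count of 2 left the count of changed genes within 1.5 times of 457. It was 738 by DESeq2 (447 of the 457 called, all in the same direction), 1179 with 2 groups per fit, 119 by glmTreat against a log2 fold change of 1, 277 without pancreatic genes and DSS + EA mouse 2, and 54 without DSS + EA mice 2 and 3, an alternative chosen after seeing the data in which the lone mouse is assumed to vary like the other groups. DEGs numbered 418 without a filter and 767 beyond a log2 fold change of 1. In that order, genes that stayed higher numbered 382, 472, 61, 152 and 34, and those that stayed lower 121, 249, 15, 27 and 1. Crossing upwards was found in 47 genes by DESeq2, 0 by glmTreat and 1 without DSS + EA mice 2 and 3; crossing downwards in 3 by DESeq2, 3 with 2 groups per fit, 1 by library totals and 1 with a mean of at least 20 counts. Newly higher genes numbered 158 with 2 groups per fit, 35 by glmTreat, 66 without pancreatic genes and mouse 2, and 18 without mice 2 and 3; newly lower genes 25 by DESeq2, 27, 1, 4 and 0 in the same order. The cause was not tested. Leaving out 1 mouse at a time gave 110 to 772 changed genes, 220 to 328 DEGs, 66 to 388 that stayed higher, 13 to 138 that stayed lower, 2 to 50 that crossed upwards, 0 to 5 that crossed downwards, 19 to 143 newly higher and 1 to 22 newly lower. Of 126 named changed genes, 54 kept their call in all 9 such fits. No called gene reversed; among uncalled genes, the log2 fold change became -2.53 in Clps, -0.43 in Cela1 and -0.12 in Cd4 without DSS + EA mice 2 and 3, and with 1 mouse left out that of Adgre1 ran from -0.033 (without control mouse 1) to 0.62 (without control mouse 3), that of Pf4 from -0.57 to 0.0214 and that of Ccl11 from -0.16 to 0.33.

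Replicate numbers did not pair the samples: deviations of same-numbered control and DSS + EA mice correlated at 0.0115, 0.0102 and -0.0806. With the number as a replicate block, 364 genes changed and 4 were newly lower. With 3 mice a group and 3 counts worth 0.708 to 1.14 CPM, levels of genes near 1 CPM rest on few counts.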
